A study of Mus musculus with 46 samples.

Results

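The genes described here are 33 genes of cholesterol and fatty acid synthesis, among the 24537 genes of each table. They were picked by symbol, with earlier results of these data known. Of them, 18 encode enzymes of the sterol pathway, 10 encode enzymes of fatty acid synthesis, elongation and desaturation or suppliers of its substrates, and 5 encode regulators or a sterol carrier. RNA of mouse cells was sequenced in 42 libraries, which form 21 groups of 2, to compare cells with and without Arid1a, whose product is part of the BAF (SWI/SNF) machinery that moves nucleosomes. Most groups were B16F10 melanoma cells with an Arid1a guide (sgArid1a) or a non-targeting guide (sgScramble). Untreated cultures carried sgArid1a/sgCgas, sgArid1a/sgSting, sgArid1a or sgScramble, and 1 further sgArid1a group had received an antibody to the type I interferon receptor (anti-IFNAR) for 72 h. The line of the double knockouts reads B16F11, B16F12, B16F13 and B16F14 in the labels and was taken to be B16F10, as in their titles. In another experiment sgArid1a cells received ruxolitinib or DMSO and sgScramble cells DMSO, each for 72 h. Ruxolitinib inhibits the JAK kinases, which relay interferon signals. sgScramble cells were also given BD98 with anti-IFNAR, BD98 alone or DMSO for 72 h. BD98 is a code name in the labels, and the compound is not described further here. Cells with either guide received murine interferon gamma (IFNγ) for 24 h, or PBS. Subcutaneous tumors of sgArid1a or sgScramble cells were taken on day 15. Untreated MC38 colon cancer cells carried sgArid1a or sgScramble. Mouse embryonic fibroblasts (MEFs) with floxed Arid1a (Arid1a fl/fl) were given tamoxifen, which gave Arid1a -/- cells, or ethanol (WT), and were taken on day 5. Tamoxifen and the deletion cannot be told apart in them, and the labels do not name the recombinase. Further total RNA libraries were not analysed here.

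Cholesterol is built from acetyl units through mevalonate, isoprenoid chains, squalene and lanosterol, and fatty acids from malonyl units that acetyl-CoA carboxylase supplies to fatty acid synthase. The SREBP transcription factors, encoded by Srebf1 and Srebf2, are held in the endoplasmic reticulum membrane by the Insig proteins when sterols are plentiful, and are cleaved and switch on the enzyme genes when sterols are scarce. Srebf2 acts mainly on sterol genes and Srebf1 mainly on fatty acid genes, and Insig1 is itself a target, and is often read as a gauge of the pathway.

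Libraries held 8.7 to 38.8 M reads by the totals in the file headers, with the fewest in an untreated sgScramble library. All 33 genes passed the filter on low values in every experiment. Arid1a itself was lower with its guide in untreated cultures (log2 fold change -0.58 ± 0.11 (SE), adjusted p = 0.0043 in limma) and in tumors (-0.32 ± 0.07, adjusted p = 0.0031 in limma). It was also lower in Arid1a -/- MEFs (-0.43 ± 0.09, adjusted p = 0.012 in limma) and, by less, in MC38 cells with its guide (-0.14 ± 0.03, adjusted p = 0.00087 in limma). In the DMSO cultures its difference did not pass the test (-0.26 ± 0.12, adjusted p = 0.23 in limma). In the double knockouts it averaged 10.88 (sgArid1a/sgCgas) and 10.77 (sgArid1a/sgSting) on the log2 scale, against 10.41 in sgArid1a cells and 10.99 in sgScramble cells, so these libraries did not show the lower level of the single knockout. In the IFNγ experiment it was 12.32 in PBS libraries labelled sgArid1a and 12.41 in those labelled sgScramble (adjusted p = 0.51 in limma). The groups of both experiments are therefore called by their labels. Arid1a was also lower under 2 treatments. With BD98 it differed from DMSO by -0.48 ± 0.07 in sgScramble cells (adjusted p = 2.1e-06 in edgeR). With IFNγ it differed from PBS by -0.35 ± 0.05 in libraries labelled sgScramble and -0.18 ± 0.05 in those labelled sgArid1a (adjusted p = 1.7e-05 and 0.0051 in limma). Counting did not use strand as far as the file headers show, and 43.7% of the 31-base words of Acat2 transcripts, 36.9% of those of Me1, 33.5% of Acaca, 31.9% of Fdft1, 27.9% of Fdps and 27.1% of Idi1 also occur in transcripts of other genes, so values of these 6 genes are less certain. The labels do not say that replicates came from separate cultures or animals, so p-values measure the spread between these libraries, which may be technical.

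The stretches upstream of the start sites show what the sterol genes share at the level of sequence. Promoter sequences (RefSeq, GRCm38.p6, 250 bases upstream of the start) were given for 26 of the 33 genes. The pentamer CCAAT, which the factor NF-Y binds, was searched on both strands, as were CACCNCAC, a form of the sterol regulatory element, and CACGTG, an E-box. CCAAT occurred upstream of 14 of 15 sterol genes (93.3%), of 3 of 7 fatty acid genes (42.9%) and of 4 of 4 regulators, against 41.2% of 9038 genes tested in the untreated cultures and 37.5% of all 27025 genes. Acat2 was the sterol gene without it. Of the 41 CCAAT matches, 2 overlap each other, in Fasn. CACCNCAC occurred upstream of 3 sterol genes (20.0%), which were Acat2, Hmgcs1 and Hsd17b7, against 6.65% of the genes tested. CACGTG occurred upstream of 3 of the 15 sterol genes (20.0%), against 10.2% of the genes tested. These are matches of letters in a fixed window, not measured binding sites. The 100-base windows below are of 5 sterol genes and of Fasn, each placed where it held the most matches within the 250 bases. The 3 motifs are in capitals on either strand (ATTGG is CCAAT on the other strand). All 6 are written 5′ to 3′ on the strand of the gene.
Hmgcs1, chr13:119690215-119690314, plus strand: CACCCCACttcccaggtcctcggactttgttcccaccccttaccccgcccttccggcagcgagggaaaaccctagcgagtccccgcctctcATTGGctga
Mvd, chr8:122443423-122443522, minus strand: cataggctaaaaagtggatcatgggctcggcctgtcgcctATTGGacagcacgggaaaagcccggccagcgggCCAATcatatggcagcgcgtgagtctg
Msmo1, chr8:64733579-64733678, minus strand: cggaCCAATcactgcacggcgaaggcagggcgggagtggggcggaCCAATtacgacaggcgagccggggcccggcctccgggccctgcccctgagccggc
Nsdhl, chrX:72918412-72918511, plus strand: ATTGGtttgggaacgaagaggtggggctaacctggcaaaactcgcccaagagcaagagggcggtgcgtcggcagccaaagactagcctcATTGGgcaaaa
Hsd17b7, chr1:169969271-169969370, minus strand: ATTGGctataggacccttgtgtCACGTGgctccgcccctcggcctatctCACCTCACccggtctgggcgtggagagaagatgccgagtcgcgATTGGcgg
Fasn, chr11:120824548-120824647, minus strand: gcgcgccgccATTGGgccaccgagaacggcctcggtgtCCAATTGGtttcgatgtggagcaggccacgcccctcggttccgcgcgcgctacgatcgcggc
The Mvd, Msmo1 and Nsdhl windows hold 2 CCAAT matches each, the Fasn window holds 3, and the Hsd17b7 window holds all 3 motifs. Windows of Lss and Cyp51, not shown here, hold 1 CCAAT match each, and that of Insig1 holds 0 with 1 CACGTG. The windows were placed by their matches, so the counts in them are not a result.

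Levels per kilobase differed widely among the genes. In sgScramble cells given DMSO for 72 h, where raw counts were deposited, Scd2, a stearoyl-CoA desaturase, had 571 and 590 RPKM (reads per kilobase of exon, scaled to library size) in the 2 libraries, the highest of the 33 genes. Acly, which makes cytosolic acetyl-CoA from citrate, followed with 98.7 and 97.1 RPKM. Fads2 (81.0 and 84.0 RPKM), a desaturase of polyunsaturated chains, stood above Scd1, the other stearoyl-CoA desaturase (58.7 and 57.3 RPKM). Among sterol enzymes Sqle, squalene epoxidase, was highest with 53.8 and 53.3 RPKM. Srebf2 (49.9 and 55.4 RPKM) and Fasn (48.1 and 51.6 RPKM), fatty acid synthase, overlapped in their ranges and cannot be ordered. Hsd17b7, a sterol ketoreductase, had 3.37 and 2.85 RPKM. Idi1, isopentenyl diphosphate isomerase, was lowest with 0.414 and 0.0466 RPKM, so that its level is poorly fixed.

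**Figure D1:**
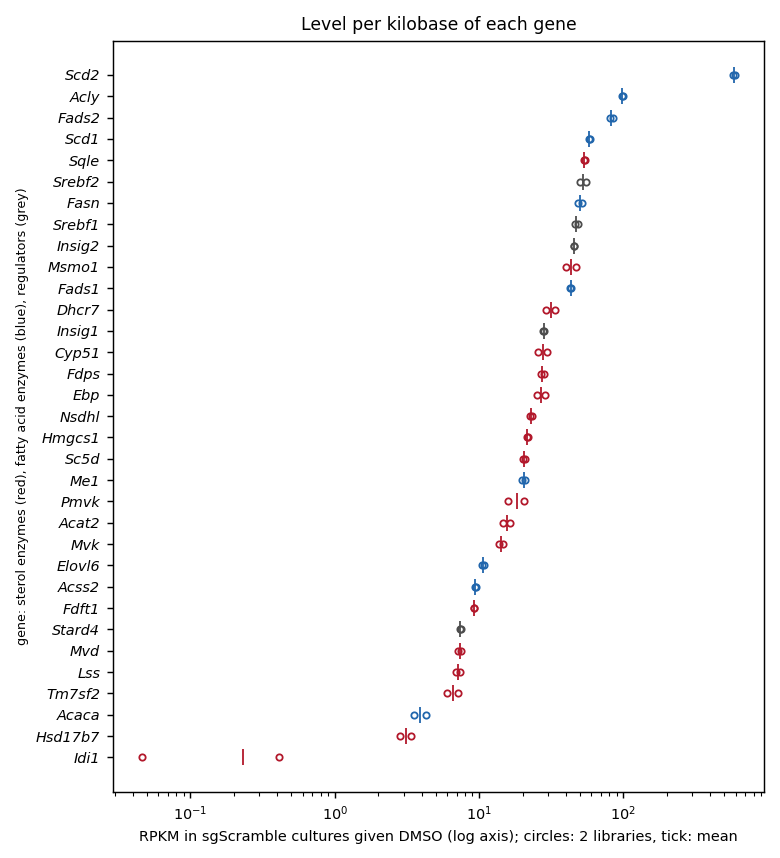
RPKM of the 33 genes (log axis) in 2 libraries of sgScramble B16F10 cells given DMSO for 72 h in the BD98 experiment, circles for libraries and ticks for means, sorted by mean. Scd2 stands alone at a mean of 581 RPKM, and Idi1 is lowest at a mean of 0.23 RPKM.

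Without treatment, sterol enzymes were higher in sgArid1a cells along the whole pathway. Of 18 sterol genes 15 rose and none fell at an adjusted p under 0.05 (limma), where 5.84% of all 11604 genes tested rose and 5.98% fell, and the median log2 difference was 0.61, against 0.01 over all genes. In the mevalonate steps, Hmgcs1, HMG-CoA synthase, had normalized log2 levels of 10.75 and 10.72 in sgArid1a cells, against 10.06 and 10.03 in sgScramble cells (0.69 ± 0.08 (SE), adjusted p = 0.0002). Mvd, mevalonate diphosphate decarboxylase, had 8.63 and 8.31, against 7.11 and 7.56, the widest difference of the group at 1.13 ± 0.16 (adjusted p = 0.00064 in limma). Both sgArid1a libraries lay above both sgScramble libraries for each of these genes. Acat2, which joins 2 acetyl-CoA units, rose by 0.81 ± 0.11 (adjusted p = 0.00035 in limma) and Idi1 by 0.95 ± 0.14 (adjusted p = 0.00067 in limma). In the later steps Cyp51, lanosterol demethylase, had 11.33 and 11.43 in sgArid1a cells, against 10.73 and 10.57 in sgScramble cells (0.73 ± 0.09, adjusted p = 0.00024 in limma). Lss, which closes the sterol rings, rose by 0.73 ± 0.10 and Nsdhl, which acts in removal of the methyl groups at the fourth carbon of the sterol, by 0.63 ± 0.10 (adjusted p = 0.00068 and 0.0014 in limma). Sqle moved least among the called sterol genes, with 11.19 and 11.13 in sgArid1a cells and 10.85 and 10.90 in sgScramble cells (0.29 ± 0.09, adjusted p = 0.046 in limma). Mvk (0.29), Tm7sf2 (0.27) and Hsd17b7 (0.39) did not pass the test. Of 6 melanocytic markers 2 fell and none rose in sgArid1a cells. The log2 of the summed list was 18.2 to 18.3, against 18.46 to 18.54 in sgScramble cells. Of the 3 fibroblast markers tested 2 fell, as did the 1 macrophage marker tested, and the part of these markers in the values was not tested.

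Fatty acid genes moved less together in the same cultures. Of 10, 5 rose (Fasn, Scd1, Acly, Elovl6, Fads2) and none fell, where 5.84% of all genes rose and 5.98% fell. The median difference was 0.35. Fasn had 13.20 and 12.96 in sgArid1a cells, against 11.99 and 12.50 in sgScramble cells (0.84 ± 0.15, adjusted p = 0.0028 in limma). Scd1 had 12.44 and 12.46, against 11.77 and 11.91 (0.61 ± 0.09, adjusted p = 0.00079 in limma). Scd2 did not pass (0.24, adjusted p = 0.17 in limma), nor did Fads1 (-0.10), Me1, malic enzyme (-0.17), Acaca, acetyl-CoA carboxylase (0.36), or Acss2, acetyl-CoA synthetase (0.19). The count was 2 of 10, Fasn and Scd1, without sgArid1a replicate 1 and also without sgArid1a replicate 2. The same 4 libraries were also normalized within the anti-IFNAR table, where 14 of 18 sterol genes and 4 of 10 fatty acid genes rose and none fell (sterol median 0.45), against 4.91% of all 11686 genes that rose and 5.78% that fell. In that table the sterol count was 8 without sgArid1a replicate 1 and 5 without sgArid1a replicate 2, and the fatty acid count 1 and 2, and 8 without sgScramble replicate 2.

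The Insig genes went opposite ways in untreated cultures. Insig1 had 10.92 and 10.90 in sgArid1a cells, against 9.99 and 10.19 in sgScramble cells (0.82 ± 0.10, adjusted p = 0.00013 in limma). Insig2 had 9.92 and 10.03 in sgArid1a cells, against 10.44 and 10.54 in sgScramble cells, and fell (-0.52 ± 0.09, adjusted p = 0.0032 in limma). Stard4, which carries cholesterol between membranes, rose by 0.58 ± 0.09 (adjusted p = 0.0019 in limma). Srebf1 (0.16, adjusted p = 0.49 in limma) and Srebf2 (0.36, adjusted p = 0.092 in limma) did not pass the test, so 2 of 5 regulators rose and 1 fell. Over all genes tested 5.84% rose and 5.98% fell.

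**Figure D2:**
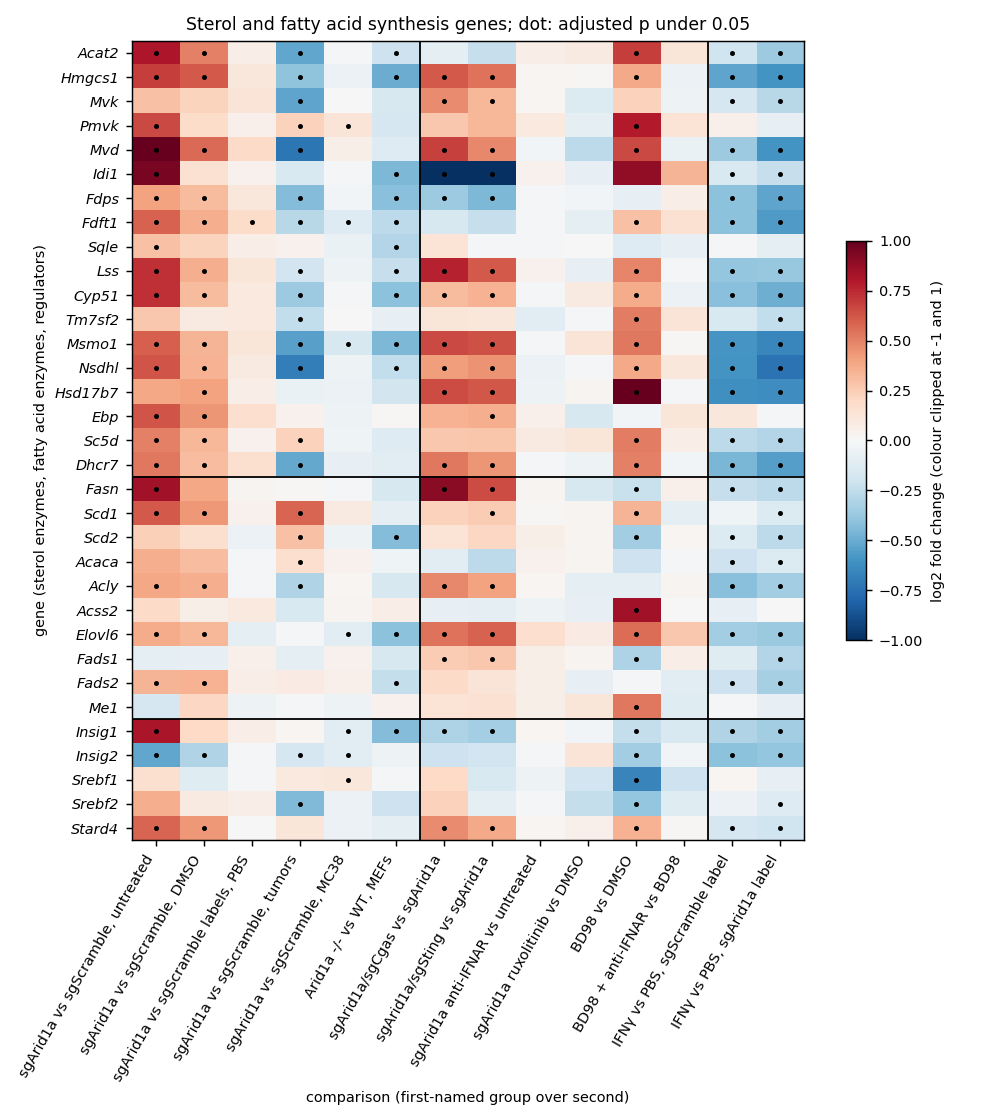
Log2 fold change of the 33 genes (rows, sterol enzymes above, then fatty acid enzymes, then regulators) in 14 comparisons (columns, first-named group over second), with colours clipped at -1 and 1 and a dot where the adjusted p is under 0.05. Sterol rows are mostly red in untreated and DMSO cultures and with BD98, and mostly blue in tumors, MEFs and with IFNγ.

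After 72 h in DMSO the sterol genes also stood higher in sgArid1a cells. Of 18, 13 rose and none fell (median 0.34), where 3.5% of all 11783 genes tested rose and 4.38% fell. Hmgcs1 had 11.02 and 11.04 in sgArid1a cells, against 10.50 and 10.34 in sgScramble cells (0.61 ± 0.08, adjusted p = 0.00083 in limma). Mvd had 8.45 and 8.64, against 8.02 and 7.95 (0.57 ± 0.09, adjusted p = 0.002 in limma). Acat2 rose by 0.50 ± 0.09 (adjusted p = 0.0045 in limma). Idi1, with 4.48 and 4.55 in sgArid1a cells and 4.36 and 4.37 in sgScramble cells, lay close to the filter at 4 and did not pass (0.15). Of the fatty acid genes Scd1 (0.43), Fads2 (0.35), Acly (0.36) and Elovl6 (0.33), which elongates palmitate, rose, and Fasn did not pass the test (0.39, adjusted p = 0.069 in limma). Stard4 rose by 0.43 and Insig2 fell by 0.30, while Insig1 (0.20) did not pass. Of 6 macrophage markers 3 were tested, and C1qb fell (-0.31, adjusted p = 0.011 in limma), with a log2 of the summed list of 6.88 to 6.89 in sgArid1a cells and 7.03 to 7.08 in sgScramble cells. Of 6 fibroblast markers 3 were tested, and Col1a2 fell (-0.35, adjusted p = 0.03 in limma), and the part of these markers in the values was not tested. The sterol and fatty acid counts need both sgArid1a libraries: without sgArid1a replicate 1 they were 3 sterol and 0 fatty acid genes, without sgArid1a replicate 2 they were 2 and 0, and without sgScramble replicate 1 the fatty acid count was 8.

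In the PBS cultures, where Arid1a did not follow the guide labels, 1 of 18 sterol genes rose (Fdft1, squalene synthase, 0.18 ± 0.05, adjusted p = 0.047 in limma), where 2.37% of 12357 genes rose and 0.348% fell. No fatty acid gene or regulator was called there (1540 of all genes had an unadjusted p under 0.05 in limma). All 18 sterol differences were positive, between 0.04 and 0.19, and the Fdft1 call was lost without any 1 of the 4 PBS libraries, when the sterol count was 0.

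**Figure D3:**
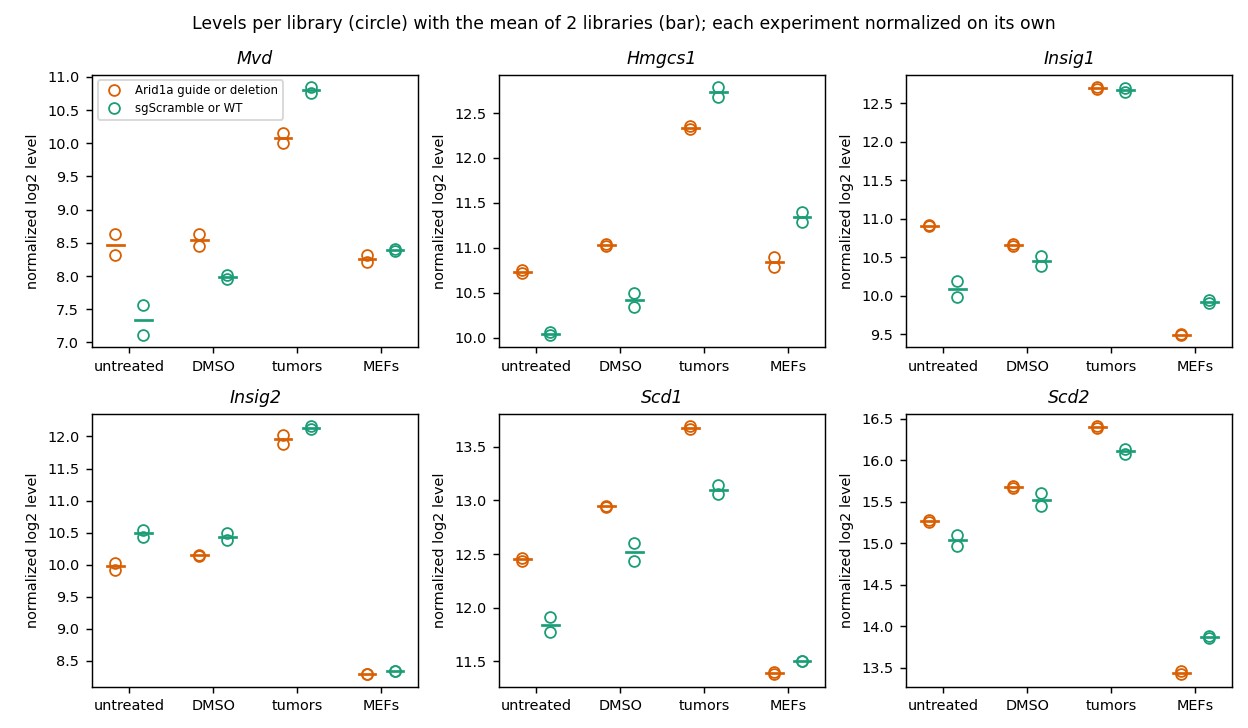
Normalized log2 levels of 6 genes in single libraries (circles) with the mean of 2 libraries (bars), for cells with the Arid1a guide or deletion (orange, left) and sgScramble or WT cells (green, right) in 4 experiments, each normalized on its own. Mvd and Hmgcs1 are higher on the left in untreated and DMSO cultures and lower on the left in tumors, and Scd1 is higher on the left in all but the MEFs.

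In tumors the order of the sterol genes was the other way round. Of 18 sterol genes 12 fell and 2 rose (median -0.32), where 28.1% of all 13895 genes tested fell and 26.0% rose. Nsdhl had 10.94 and 10.89 in sgArid1a tumors, against 11.64 and 11.58 in sgScramble tumors (-0.69 ± 0.06, adjusted p = 1.7e-06 in limma). Mvd had 10.01 and 10.16, against 10.85 and 10.76 (-0.72 ± 0.07, adjusted p = 5e-06 in limma). Msmo1, a sterol methyl oxidase, had 12.71 and 12.58, against 13.15 and 13.22 (-0.54 ± 0.06, adjusted p = 1.7e-05 in limma). Every sgArid1a tumor lay below every sgScramble tumor for these 3 genes. Acat2 (-0.52), Mvk, mevalonate kinase (-0.53), Dhcr7, the last reductase before cholesterol (-0.51), Fdps, farnesyl diphosphate synthase (-0.43), and Hmgcs1 (-0.40) also fell. Pmvk, phosphomevalonate kinase, and Sc5d, a sterol desaturase, rose, each by 0.23 ± 0.06 (adjusted p = 0.0095 and 0.0084 in limma). Sqle (0.04), Ebp (0.04), Hsd17b7 (-0.07) and Idi1 (-0.15) did not pass the test. Of the regulators Srebf2 fell, with 12.97 and 13.08 in sgArid1a tumors and 13.51 and 13.42 in sgScramble tumors (-0.44 ± 0.06, adjusted p = 8.3e-05 in limma), and Insig2 fell (-0.17), while Insig1 (0.02) and Srebf1 (0.10) did not pass.

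The stearoyl-CoA desaturases did not share the fall. Scd1 had 13.69 and 13.66 in sgArid1a tumors, against 13.14 and 13.06 in sgScramble tumors (0.58 ± 0.06, adjusted p = 5e-06 in limma). Scd2 had 16.41 and 16.39, against 16.14 and 16.08 (0.29 ± 0.06, adjusted p = 0.0014 in limma). Acaca rose by 0.17 and Acly fell by 0.30 (adjusted p = 0.043 and 0.00064 in limma). In all, 3 of 10 fatty acid genes rose and 1 fell, where 26.0% of all 13895 genes rose and 28.1% fell. The share that rose was thus near that over all genes, and the median of the 10 was 0.00. Fasn, with 13.79 and 13.97 in sgArid1a tumors and 13.93 and 13.80 in sgScramble tumors, overlapped between the groups.

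Tumors hold several cell types, and fewer cells of a type and less RNA per cell cannot be told apart in them. All 6 muscle markers rose in sgArid1a tumors, by 2.22 to 3.16, and the log2 of their summed level was 13.21 to 13.22 in sgArid1a tumors against 10.23 to 10.34 in sgScramble tumors. All 5 adipocyte markers tested rose, by 0.45 to 2.98 (median 0.58, summed 11.85 to 11.90 against 10.68 to 10.89). The widest of these rises was that of Car3, which ran from 7.3 to 10.34 over the 4 tumors. All 6 macrophage markers rose, by 0.73 to 1.28 (summed 14.13 to 14.22 against 12.94 to 13.04), as did the leukocyte gene Ptprc (1.22). Of 6 melanocytic markers 2 fell (Pmel -0.98, Tyrp1 -0.68), 1 rose (Mitf 0.33) and 3 were not called, with summed levels of 19.15 to 19.17 in sgArid1a tumors and 19.59 to 19.62 in sgScramble tumors. Of 6 fibroblast markers 3 fell (Col1a1, Col1a2 and Col3a1) and 1 rose (Pdgfrb). The keratinocyte markers Krt14 and Dsg1a were listed at 0 in all 4 tumors. The part of these cell types in the tumor values was not tested.

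**Figure D4:**
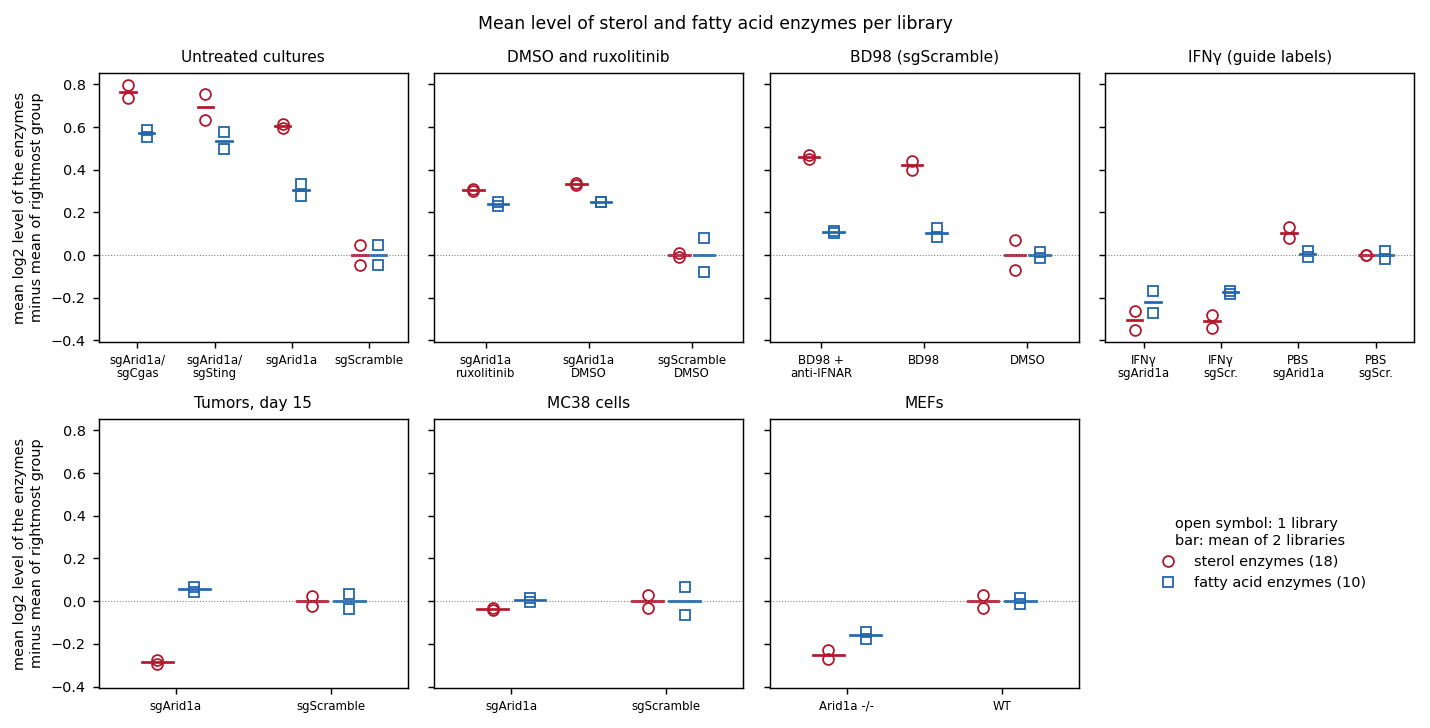
Mean normalized log2 level of the 18 sterol enzymes (red circles) and the 10 fatty acid enzymes (blue squares) in each library, minus the mean of the rightmost group of each panel, with bars at the mean of 2 libraries. Sterol enzymes of sgArid1a cells lie 0.60 above sgScramble cells in untreated cultures and 0.34 above in DMSO cultures, and sgArid1a tumors lie 0.28 below sgScramble tumors while fatty acid enzymes lie 0.06 above.

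In MC38 cells 15 of 18 sterol genes were not called, and the shares called were no larger than those over all genes. Of 18, 1 rose (Pmvk 0.13) and 2 fell (Msmo1 -0.16 ± 0.03, adjusted p = 0.0006, and Fdft1 -0.13 ± 0.03, adjusted p = 0.0015, both in limma), where 8.33% of all 11516 genes rose and 12.9% fell. Msmo1 had 10.85 and 10.88 in sgArid1a cells, against 11.08 and 10.96 in sgScramble cells. Elovl6 was the fatty acid gene called (-0.11, adjusted p = 0.012 in limma), and with quantile normalization 2 fatty acid genes were called and both rose. Srebf1 rose (0.11) and Insig1 and Insig2 fell (both -0.11). The sterol count was 5, 8, 0 and 1 and the fatty acid count 4, 4, 0 and 0 without sgScramble replicate 1, sgScramble replicate 2, sgArid1a replicate 1 and sgArid1a replicate 2. The epithelial markers of these cells were at or near 0, with Epcam listed at 0 and Krt8 at 1.57 to 1.58, while the fibroblast genes Col3a1 (9.07 to 9.39) and Pdgfra (8.71 to 8.94) were present. The listed markers thus did not show an epithelial pattern in these cells.

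In MEFs the sterol genes were lower in Arid1a -/- cells, which had received tamoxifen, than in WT cells, which had received ethanol. Of 18, 10 fell and none rose (median -0.22), where 5.01% of all 12184 genes tested fell and 4.69% rose. Hmgcs1 had 10.90 and 10.79 in Arid1a -/- MEFs, against 11.40 and 11.29 in WT MEFs (-0.50 ± 0.07, adjusted p = 0.00076 in limma). Fdps had 10.07 and 10.04, against 10.48 and 10.48 (-0.42 ± 0.06, adjusted p = 0.00072 in limma), and Cyp51 fell by 0.41 and Msmo1 by 0.45 (adjusted p = 0.0018 and 0.0042 in limma). Sqle had 10.55 and 10.51 in Arid1a -/- MEFs, against 10.87 and 10.77 in WT MEFs (-0.29, adjusted p = 0.012 in limma). Of the fatty acid genes Scd2 (-0.43), Elovl6 (-0.41) and Fads2 (-0.24) fell, and Scd2 had 13.46 and 13.42, against 13.88 and 13.86. Insig1 had 9.50 and 9.49, against 9.95 and 9.90, and was the regulator that fell (-0.43 ± 0.05, adjusted p = 0.00064 in limma). Without WT replicate 1, 6 sterol genes were called. The fibroblast markers Col1a1 (14.97 to 15.26) and Col1a2 (15.01 to 15.18) were high. Of 6 fibroblast markers 3 rose in Arid1a -/- MEFs, Col3a1 (0.74), Pdgfra (0.28) and Thy1 (0.20), and the log2 of the summed list was 16.1 to 16.24 in Arid1a -/- MEFs and 16.14 to 16.3 in WT MEFs. Cdh1, an epithelial marker, rose (0.22) and Acta1, a muscle marker, fell (-0.18), and the part of these markers in the values was not tested.

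The libraries labelled as double knockouts held more sterol enzyme RNA than sgArid1a libraries, with 1 large exception. In sgArid1a/sgCgas against sgArid1a, 9 of 18 sterol genes rose and 2 fell (median 0.33), where 12.2% of all 11604 genes rose and 16.5% fell. In sgArid1a/sgSting against sgArid1a, 10 rose and 2 fell (median 0.34), where 13.9% of all genes rose and 17.9% fell. Hmgcs1 had 11.32 and 11.37 in sgArid1a/sgCgas and 11.26 and 11.29 in sgArid1a/sgSting cells, against 10.75 and 10.72 in sgArid1a cells (0.61 ± 0.08 and 0.54 ± 0.08, adjusted p = 0.00012 and 0.00033 in limma). Lss had 10.44 and 10.33 in sgArid1a/sgCgas and 10.24 and 10.20 in sgArid1a/sgSting cells, against 9.57 and 9.65 in sgArid1a cells (0.77 ± 0.10 and 0.61 ± 0.10, adjusted p = 0.0001 and 0.00078 in limma). Idi1 had 5.77 and 6.06 in sgArid1a/sgCgas cells and 5.80 and 5.65 in sgArid1a/sgSting cells, against 8.52 and 8.80 in sgArid1a cells and 7.67 and 7.76 in sgScramble cells. It thus fell below both single-guide groups, with log2 fold changes of -2.75 ± 0.14 and -2.94 ± 0.14 relative to sgArid1a (adjusted p = 4.2e-09 and 2.3e-09 in limma). Idi1 also differed widely between experiments without double knockouts, normalized separately. It had 4.36 and 4.37 in sgScramble cells of the ruxolitinib experiment (DMSO), and 6.54 and 6.51 in PBS libraries labelled sgScramble. The part of this spread in the fall was not tested. Fdps, the next enzyme after Idi1, fell by 0.36 and 0.45 (adjusted p = 0.015 and 0.004 in limma).

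Fasn was the fatty acid gene with the widest difference in the double knockouts, with 14.06 and 13.90 in sgArid1a/sgCgas and 13.65 and 13.82 in sgArid1a/sgSting cells, against 13.20 and 12.96 in sgArid1a cells (0.90 ± 0.15 and 0.65 ± 0.15, adjusted p = 0.00054 and 0.0051 in limma). In all 4 of 10 fatty acid genes rose with sgArid1a/sgCgas and 5 with sgArid1a/sgSting, and none fell. Over all genes 12.2% and 13.9% rose and 16.5% and 17.9% fell in these comparisons with sgArid1a. Insig1 fell by 0.31 and 0.34 and Stard4 rose by 0.47 and 0.38 (adjusted p = 0.027, 0.016, 0.0026 and 0.0095 in limma). Relative to sgScramble, 16 of 18 sterol genes rose and 1, Idi1, fell in either double knockout, with medians of 0.95 (sgArid1a/sgCgas; 19.7% of all genes rose and 21.9% fell) and 0.98 (sgArid1a/sgSting; 20.2% rose and 22.1% fell). Fasn stood 1.74 and 1.49 above sgScramble and Mvd 1.81 and 1.61. These comparisons share their control libraries. Of 6 melanocytic markers 4 (sgArid1a/sgCgas) and 5 (sgArid1a/sgSting) fell against sgScramble, and 1 and 2 against sgArid1a, and none rose. Of the 3 fibroblast markers tested 2 fell against sgScramble in either double knockout, as did the 1 macrophage marker tested. The part of these markers in the values was not tested. With quantile normalization the median of all genes moved to 0.08 to 0.09, and the calls over all genes in sgArid1a/sgCgas against sgArid1a were 2336 higher and 1527 lower in place of 1416 and 1913, while the sterol calls were 11 higher and 2 lower. Likewise sgArid1a/sgSting against sgArid1a gave 2561 higher and 1601 lower in place of 1611 and 2077, and against sgScramble the splits were 3155 and 2096 (sgArid1a/sgCgas) and 3238 and 2056 (sgArid1a/sgSting) in place of 2282 and 2544 and of 2348 and 2561. For sgArid1a/sgCgas against sgArid1a the sterol count was 6 without sgArid1a replicate 2 and 7 without sgArid1a/sgCgas replicate 2, and the fatty acid count 2 without sgArid1a replicate 2 or sgArid1a/sgCgas replicate 1. For sgArid1a/sgSting it was 2, 1, 3 and 1 without sgArid1a replicate 1, sgArid1a replicate 2, or either sgArid1a/sgSting library.

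Blocking interferon signals left the sterol genes of sgArid1a cells without a call. With anti-IFNAR none of the 33 genes was called against untreated sgArid1a cells in limma, where 0.0% of all genes rose and 0.0171% fell (150 genes had an unadjusted p under 0.05), and sterol differences ran from -0.11 to 0.10. Hmgcs1 had 10.82 and 10.74 with anti-IFNAR, against 10.77 and 10.75 untreated, and Insig1 11.03 and 11.01, against 11.01 and 10.98. With ruxolitinib none was called against sgArid1a cells in DMSO in limma either, where 0.0255% rose and 0.195% fell (1169 genes had an unadjusted p under 0.05), with sterol differences from -0.26 (Mvd) to 0.13. Hmgcs1 had 11.06 and 11.02 with ruxolitinib, against 11.02 and 11.04 in DMSO, and Mvd 8.23 and 8.34, against 8.45 and 8.64. Of the 3 macrophage markers tested, Adgre1 rose with ruxolitinib against sgArid1a cells in DMSO (0.43, adjusted p = 0.00079 in limma), with a log2 of the summed list of 6.98 to 7.01 with ruxolitinib and 6.88 to 6.89 in DMSO, and their part was not tested. A gene that misses the threshold is not shown to be equal. Set against sgScramble cells in DMSO, ruxolitinib-treated sgArid1a cells had 11 of 18 sterol genes and 5 of 10 fatty acid genes higher and none lower, where 6.1% of all genes rose and 9.41% fell. That comparison shares the ruxolitinib and DMSO libraries with those above. Its sterol count was 3 without ruxolitinib replicate 1 and 5 without ruxolitinib replicate 2, and its fatty acid count 0, 1 and, without sgScramble replicate 1, 8.

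BD98 raised sterol enzyme RNA in sgScramble cells, while fatty acid genes were called in both directions. Of 18 sterol genes 13 rose and none fell (median 0.49) in edgeR's quasi-likelihood test, where 24.5% of all 12843 genes rose and 25.4% fell. Library values of this experiment are log2 CPM (counts scaled to library size). Hsd17b7 had 4.84 and 5.08 with BD98, against 4.11 and 3.89 in DMSO (1.0 ± 0.12, adjusted p = 2e-07 in edgeR). Acat2 had 5.89 and 5.73, against 5.21 and 5.05 (0.69 ± 0.09, adjusted p = 7.5e-07 in edgeR). Pmvk rose by 0.79 ± 0.11 and Sc5d by 0.51 ± 0.08 (adjusted p = 1.6e-06 and 8.7e-06 in edgeR). Hmgcs1 rose less, with 6.69 and 6.80 under BD98 and 6.38 and 6.36 in DMSO (0.38 ± 0.08, adjusted p = 0.00018 in edgeR). Sqle (-0.13), Fdps (-0.08), Ebp (-0.03), Mvk (0.23) and Idi1 (0.89 ± 0.51) did not pass, and Idi1 differed between the DMSO libraries (1.17 and 0.19).

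Among fatty acid genes BD98 raised Acss2 (5.69 and 5.68 with BD98, against 4.85 and 4.88 in DMSO; 0.84 ± 0.09, adjusted p = 2.2e-08 in edgeR), Elovl6 (0.56), Me1 (0.53) and Scd1 (0.34). Scd2 fell, with 11.30 and 11.42 under BD98 and 11.68 and 11.74 in DMSO (-0.35 ± 0.07, adjusted p = 0.00012 in edgeR), as did Fads1 (-0.31) and Fasn (-0.22). So 4 of 10 fatty acid genes rose and 3 fell, where 24.5% of all 12843 genes rose and 25.4% fell. Calls in both directions were thus also common over all genes. Of the 5 regulators 4 fell while Stard4 rose (0.35). Srebf1 had 7.17 and 7.03 with BD98, against 7.72 and 7.80 in DMSO (-0.66 ± 0.07, adjusted p = 2.4e-08 in edgeR), and Srebf2 (-0.39), Insig2 (-0.35) and Insig1 (-0.24) fell with it. All 6 melanocytic markers fell in the same libraries, from -2.01 (Dct) to -0.37 (Sox10), and their part in these values was not tested. With anti-IFNAR added to BD98 none of the 33 genes was called in edgeR, where 0.109% of all genes rose and 1.39% fell (1571 genes had an unadjusted p under 0.05). Differences of the 33 ran from -0.21 to 0.34, and a gene without a call is not shown to be equal. BD98 with anti-IFNAR against DMSO gave 14 sterol genes higher and 1, Sqle (-0.20), lower, where 23.4% of all genes rose and 24.8% fell, with 4 fatty acid genes higher and 3 lower. That fatty acid count of 7 was 4 without DMSO replicate 2 or BD98 with anti-IFNAR replicate 2. The comparisons with DMSO share their controls.

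**Figure D5:**
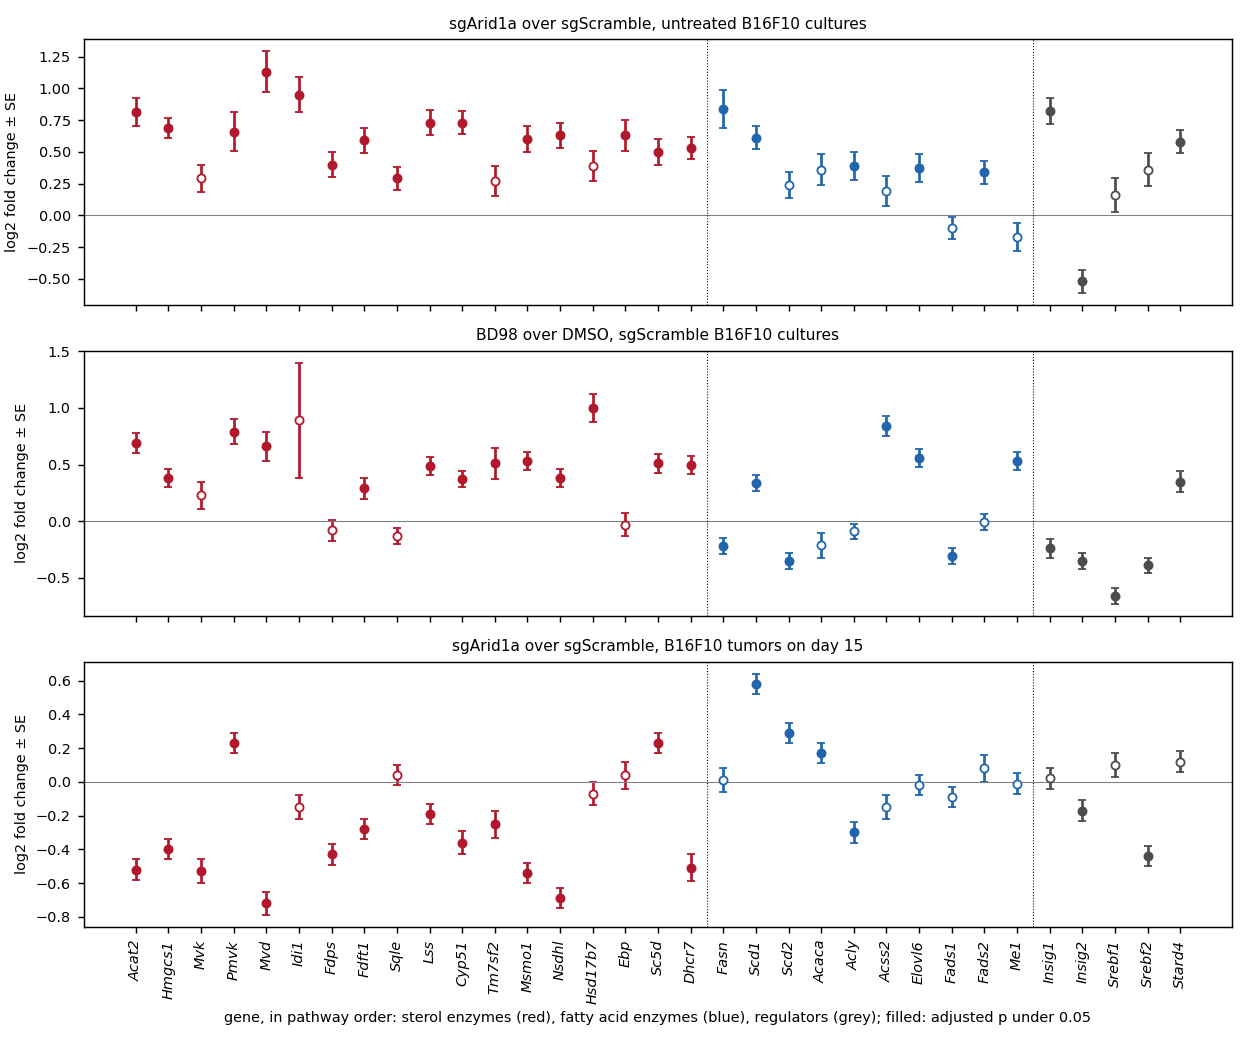
Log2 fold change with its standard error for the 33 genes in pathway order, for sgArid1a over sgScramble in untreated cultures (top), BD98 over DMSO (middle) and sgArid1a over sgScramble tumors (bottom), filled where the adjusted p is under 0.05. Mvd reaches 1.13 at the top and -0.72 at the bottom, and in the middle panel Acss2 (0.84) and Scd2 (-0.35) mark the spread of the fatty acid enzymes.

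IFNγ lowered sterol enzyme RNA under either guide label. In libraries labelled sgScramble 14 of 18 sterol genes fell and none rose (median -0.37), where 19.3% of all 12357 genes fell and 15.7% rose. In libraries labelled sgArid1a 15 fell and none rose (median -0.43), where 21.3% of all genes fell and 20.9% rose. Msmo1 had 11.60 and 11.51 with IFNγ, against 12.16 and 12.14 in PBS, in the sgScramble libraries (-0.59 ± 0.04, adjusted p = 9.1e-09 in limma), and 11.58 and 11.65 with IFNγ, against 12.30 and 12.24 in PBS, in the sgArid1a libraries (-0.65 ± 0.04, adjusted p = 2.4e-09 in limma). Hmgcs1 fell by 0.53 ± 0.05 and 0.60 ± 0.05 and Nsdhl by 0.60 ± 0.06 and 0.74 ± 0.06 in the sgScramble and sgArid1a libraries. Pmvk, Sqle and Ebp passed the test in neither, with Sqle at -0.02 and -0.09. Of the fatty acid genes 6 and 8 of 10 fell, with the widest fall for Acly in the sgScramble libraries (-0.42, adjusted p = 9.1e-08 in limma) and for Elovl6 in the sgArid1a libraries (-0.37, adjusted p = 4.1e-05 in limma). Acly had 13.70 and 13.77 with IFNγ, against 14.16 and 14.15 in PBS, in the sgScramble libraries. Scd1 passed in the sgArid1a libraries (-0.14) and not in the sgScramble libraries (-0.04). Both Insig genes fell, Insig2 by 0.41 and 0.39 and Insig1 by 0.30 and 0.35.

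The difference between those responses was tested as an interaction of guide label and IFNγ, and none of the 33 genes passed it in limma, where 0.696% of all genes were higher and 0.186% lower (1379 genes had an unadjusted p under 0.05). The widest interaction among them was that of Mvd (-0.24 ± 0.08, adjusted p = 0.25 in limma). Between guide labels under IFNγ, Scd2 alone of the 33 was called, with 15.40 and 15.55 in sgArid1a libraries and 15.64 and 15.66 in sgScramble libraries (-0.18 ± 0.04, adjusted p = 0.014 in limma), where 4.03% of all genes rose and 2.7% fell. Without IFNγ sgScramble replicate 2, 2 sterol genes passed the interaction test and 1 the test between guide labels. The Scd2 call was lost when IFNγ sgArid1a replicate 1 was left out, and 2 fatty acid genes were called without any 1 of the other 3 IFNγ libraries.

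Calls of sterol genes were also set side by side across experiments that share no library. Most of the 18 were called in each, so such lists share most of their members by their size, and nothing particular is read from the overlaps. Of the sterol genes higher in untreated sgArid1a cells (15), in sgArid1a cells in DMSO (13) and with BD98 (13), 10 were common to all 3: Acat2, Hmgcs1, Mvd, Fdft1, Lss, Cyp51, Msmo1, Nsdhl, Sc5d and Dhcr7. All 10 were also among the 14 that fell with IFNγ in the sgScramble libraries. Of the fatty acid genes Scd1 and Elovl6 were common to the first 3 comparisons, and Elovl6 to all 4. Of the 12 sterol genes that fell in tumors and the 10 that fell in MEFs, 8 were shared, and no fatty acid gene was. These experiments were normalized separately, and the difference between them was not tested.

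Neighbouring genes of lipid metabolism, a list of 29 covering SREBP processing, liver X receptors, glyceride synthesis, oxidation and NADPH supply, were called in shares that are set beside those over all genes. In untreated cultures 27 were tested, and 2 rose (Idh1, an NADPH-forming dehydrogenase, 0.67, and Elovl5, an elongase, 0.36) and 2 fell (Mylip 0.41 lower and Hadha 0.31 lower on the log2 scale), where 5.84% of all genes rose and 5.98% fell. The genes whose products bring SREBP to cleavage, Scap, Mbtps1 and Mbtps2, were not called there. In tumors 8 of 29 rose and 5 fell, where 26.0% of all genes rose and 28.1% fell, with Mbtps1, the first protease of SREBP cleavage, at -0.56 ± 0.06 (adjusted p = 7.4e-06 in limma) and Abcg1, a sterol exporter and liver X receptor target, at 0.66 ± 0.07 (adjusted p = 1.2e-05 in limma). Abcg1 ran from 7.5 to 8.23 in tumors, but from -0.84 to -0.81 in untreated cultures and double knockouts, normalized separately. Macrophage markers also rose in these tumors, and the part of other cell types in the Abcg1 values was not tested. Idh1 fell in sgArid1a tumors (-0.33) and in Arid1a -/- MEFs (-0.59). With BD98 5 of 28 rose and 9 fell, where 24.5% of all genes rose and 25.4% fell, among them Acsl3, a long-chain acyl-CoA synthetase (-1.88 ± 0.08, adjusted p = 6.9e-17 in edgeR), Lpin1, a phosphatidate phosphatase (-1.28), Mylip, a ubiquitin ligase induced by liver X receptors (-1.20), and Acadvl, which oxidizes very long chains (0.81). In sgArid1a/sgCgas and sgArid1a/sgSting cells Hadhb, of mitochondrial oxidation, was lower than in sgArid1a cells (-0.91 and -1.11) and Pgd, of the pentose phosphate pathway, higher (0.75 and 0.77). Hadhb ran from 7.63 to 9.02 over the libraries of that experiment, and from 7.92 to 8.20 in those with DMSO or ruxolitinib, normalized separately. In DMSO none of the listed genes was called in limma between guides.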

How the data were processed

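RNA was read from 42 libraries in 8 gene tables. Reads were aligned with STAR 2.5.3a and counted over exons with HOMER, per the submitters' processing notes and the file headers (mm10). In 7 tables the authors deposited log2 values normalized within each table, which draw low values together, so differences of low genes are understated. The BD98 table holds raw counts as deposited. Tests were made only within tables; differences set side by side across tables also depend on each table's normalization. A further 10 value columns were not used. Log2 tables were tested with limma 3.58.1 (mean log2 value of at least 4, trend, all groups of a table together) and counts with edgeR 4.0.16's quasi-likelihood test in R 4.3.3, with TMM scaling, filterByExpr and a pseudocount of 1 for printed log2 CPM. P-values were adjusted by Benjamini-Hochberg over all genes tested, and 0.05 was the threshold. Both scripts were tested on simulated data. Depth per library was 8.7 to 38.8 M reads by the totals in the file headers, and groups of 2 limit the precision. The control tumor columns, headed WT, were taken as sgScramble, and the sgArid1a/sgSting columns carry no replicate number and were assigned to their group only. The genes and lists were chosen with earlier results of these data known. All 33 genes are accounted for; those named in each comparison are a fixed panel and up to 4 per list with the smallest adjusted p, and others shown for illustration were chosen after their values were seen. Alternatives were another normalization, no filter, robust variance estimates, DESeq2 1.42.0, a replicate block, fits on the groups compared alone and leaving out each library. Replicate numbers were not shown to pair libraries.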

Additional observations from a re-analysis of the deposited data

Results flagged for a closer look

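Several values stood out because the libraries of 1 experiment all lay on the opposite side of their controls from those of the untreated cultures. The experiments were normalized separately, and the difference between them was not tested. The mean log2 difference of the 18 sterol enzymes was -0.28 in tumors, -0.04 in MC38 cells and -0.24 in MEFs, beside 0.60 in untreated cultures. The mean of the 10 fatty acid enzymes was -0.16 in MEFs, beside 0.31 in untreated cultures. Hmgcs1 differed by -0.40 in tumors and -0.50 in MEFs, beside 0.69 in untreated cultures, and Mvd by -0.72 in tumors and -0.13 in MEFs, beside 1.13. Sqle differed by -0.07 in MC38 cells and -0.29 in MEFs (0.29 in untreated cultures), and Insig1 by -0.11 in MC38 cells and -0.43 in MEFs (0.82). Srebf2 differed by -0.44 in tumors, -0.06 in MC38 cells and -0.21 in MEFs (0.36). Of the desaturases, Scd1 differed by -0.11 (0.61 in untreated cultures), Scd2 by -0.43 (0.24) and Fads2 by -0.24 (0.34), each in MEFs.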

How the results depend on the processing

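Each setting below changes 1 choice, and the cause was not tested. In tumors, untreated cultures, double knockouts against sgScramble, BD98 against DMSO and IFNγ against PBS, the sterol count stayed within 1.5 times its value under every alternative run. With a replicate block the fatty acid count was 2 in untreated cultures and 2 in the same libraries of the anti-IFNAR table, 1 for anti-IFNAR added to BD98, 3 in MC38 cells and 7 in MEFs, and the sterol count in MEFs was 16. Same-numbered libraries correlated at 0.686 in MEFs and -0.51 in tumors, so a crossed pairing, chosen after seeing the data, was run in tumors and called 7 fatty acid genes and 9670 genes in all. With no filter the fatty acid count was 2 in untreated cultures and in the anti-IFNAR table, 3 for ruxolitinib against sgScramble, 1 for anti-IFNAR added to BD98 and 0 in MC38 cells, and the sterol count in PBS was 0. With only the groups compared it was 2, 2, 1 (DMSO) and 2 (ruxolitinib), 0 between guides under IFNγ, with 7 sterol genes for ruxolitinib and 4 in PBS. With quantile normalization the PBS sterol count was 0, the fatty acid count was 0 between guides under IFNγ and 2, both higher, in MC38 cells, where Fasn turned to 0.09. Under IFNγ all genes then split 448 higher and 463 lower between guides, in place of 498 and 334.

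Leaving out 1 library gave these ranges of fatty acid counts: untreated 2 to 5, untreated libraries beside anti-IFNAR 1 to 8, sgArid1a/sgCgas 2 to 3, sgArid1a/sgSting 1 to 3, DMSO 0 to 8, ruxolitinib 0 to 8, anti-IFNAR added to BD98 0 to 1, BD98 with anti-IFNAR 4 to 6, guides under IFNγ 0 to 2 and MC38 0 to 4, where Acss2 ranged from -0.09 without sgScramble replicate 2 to 0.16 without sgScramble replicate 1. Sterol counts ran from 5 to 16 (untreated libraries beside anti-IFNAR), 6 to 9 (sgArid1a/sgCgas), 2 to 14 (DMSO), 3 to 13 (ruxolitinib), 0 to 0 (PBS), 0 to 1 (guides under IFNγ), 0 to 2 (interaction), 0 to 8 (MC38) and 6 to 9 (MEFs).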
